A study of Mus musculus with 15 samples.

Results

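The interferon-inducible GTPases described here are 10 mouse genes of 2 related families, the guanylate binding proteins (GBPs: *Gbp2*, *Gbp3*, *Gbp5*, *Gbp6* and *Gbp7*) and the immunity related GTPases (IRGs: *Igtp*, *Irgm1*, *Irgm2*, *Iigp1* and *Ifi47*). They were chosen by name, as the probes whose RefSeq transcript belongs to one of these genes, which gave 10 of 23462 named genes on the array and 12 of 56605 probes. Each gene had 1 probe, except *Irgm1* with 3, of which the brightest stands for the gene. RNA was measured in Mouse Embryonic Fibroblasts (MEFs) of the 3T3 line, an established Balb/c line, so that all groups share 1 line, on 15 one-color arrays in 5 groups of 3. Controls received no cytokine. The treated groups received TNFα at 10 ng/ml, TGFß1 at 5 ng/ml, 1 ng/ml of IL-1β, or 20 ng/ml of IL-6 together with its soluble receptor sIL6Rα at 25 ng/ml. The labels give 24 or 72 h for the cultures without assigning a time to an array, and the control, TNFα and TGFß1 cultures were described as stimulated for 24 h before the arrays.

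GBPs and IRGs are large GTPases that fibroblasts, macrophages and many other cells make when they sense interferon. They assemble on the vacuoles that hold intracellular bacteria and parasites and help to break these vacuoles open or to mark them for removal. Interferon γ acts on such genes through a promoter element called GAS, and through the factor IRF1 at the interferon stimulated response element (ISRE), which also serves the response to type I interferon. TNFα acts mainly through NF-κB, whose binding site is called κB, TGFß1 through Smads, IL-1β through NF-κB, and IL-6 through STAT3.

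Before the values, the promoter letters of the genes are shown as a description. The promoters come from RefSeq (assembly GRCm38.p6), as windows of 300 bases that run from 250 bases before to 50 after a transcription start. The table held 9 windows for 8 of the 10 genes, and none for *Gbp6* and *Iigp1*. The ISRE letters searched (GAAA, 2 bases of any kind, then GAAA, on both strands) stood in the windows of 7 of the 8 genes, against 3.44% of all 32851 windows. The letters TTCNNNGAA (GAS, N being any base, the same on both strands) stood in those of 4 genes, *Gbp5*, *Gbp7*, *Igtp* and *Irgm2*, against 8.3% of all windows. The κB letters searched (GGG, 2 bases of any kind, then TTTCC, on both strands) stood in that of *Gbp5* alone among the 8, against 1.63% of all windows. None of the 3 stood in the window of *Ifi47*, which says only that these letters are not there. A match is a description of letters and not a measured binding site.

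The 180 bases before the start are printed for 4 genes, 5′ to 3′ on the plus strand, with the matches in capitals. *Gbp2* is the member with the smallest q-value in the TNFα comparison (chr3:142620483-142620662). *Gbp5* is the only member whose window held all 3 kinds of letters (chr3:142496754-142496933; a further GAS match lay upstream of the printed stretch). *Igtp* (chr11:58199376-58199555) and *Irgm2* (chr11:58214797-58214976) are neighbours on chromosome 11.
Gbp2: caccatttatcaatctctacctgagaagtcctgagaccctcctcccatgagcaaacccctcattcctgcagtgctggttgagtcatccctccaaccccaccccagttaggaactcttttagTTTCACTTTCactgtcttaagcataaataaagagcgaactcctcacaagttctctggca
Gbp5: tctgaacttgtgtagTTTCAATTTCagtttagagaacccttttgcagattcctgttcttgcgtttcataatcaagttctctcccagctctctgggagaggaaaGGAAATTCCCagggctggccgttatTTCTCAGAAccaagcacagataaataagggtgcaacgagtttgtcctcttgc
Igtp: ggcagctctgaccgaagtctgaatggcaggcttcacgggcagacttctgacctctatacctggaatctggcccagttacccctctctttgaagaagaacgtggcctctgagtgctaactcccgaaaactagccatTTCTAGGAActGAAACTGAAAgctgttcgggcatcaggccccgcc
Irgm2: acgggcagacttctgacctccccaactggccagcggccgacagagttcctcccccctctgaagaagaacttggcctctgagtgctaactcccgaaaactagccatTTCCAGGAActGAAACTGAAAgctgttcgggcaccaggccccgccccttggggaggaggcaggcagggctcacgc
In *Gbp2* the capitals mark the ISRE letters on the opposite strand, 59 to 50 bases before the start. In *Gbp5* they mark, in order, the ISRE letters on the opposite strand (165 to 156 bases before), the κB letters on the opposite strand (77 to 68) and the GAS letters (52 to 44). In *Igtp* and *Irgm2* the GAS letters were followed, after the same pair of bases, by the ISRE letters GAAACTGAAA. The whole windows of these neighbours were 72.84% identical (244 of 335 aligned columns), while the other pairs of member windows were 40.49% to 50.6% identical. In the windows of *Gbp3* and *Irgm1*, 2 ISRE matches overlapped each other.

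*Gbp5*, *Gbp7*, *Gbp3* and *Gbp2* lie in 1 cluster on chromosome 3, with *Gbp2b* between *Gbp3* and *Gbp2*. *Gbp6* lies next to *Gbp10* on chromosome 5, and *Ifi47* next to *Tgtp2* on chromosome 11, where *Irgm1* lies as well. GBPs and IRGs include near-identical copies, and the probe sequences were not used here, so signal shared between copies such as *Gbp6* and *Gbp10* cannot be told apart from the gene's own.

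A level below is the log2 of the processed signal minus the 75th percentile of its array, so that 0 is a probe at that percentile. Levels are compared between arrays for the same probe and never between probes. The 75th percentiles themselves lay between 508 and 683, and 48.3% to 54.9% of probes were well above background per array, with no saturated spot. The 8 fibroblast markers (such as *Col1a1* and *Pdgfra*) were well above background on all 15 arrays, while the leukocyte markers *Ptprc*, *Adgre1* and *Lyz2*, the endothelial markers *Cdh5*, *Kdr* and *Tek* and the epithelial marker *Cdh1* were so on none. The other markers were not all absent, since 4 of 8 leukocyte and macrophage markers (*Cd68*, *Csf1r*, *Itgam* and *Cd3e*) and the endothelial marker *Pecam1* were well above background on all 15 arrays. Arrays are named here by group and label number, as in control 6. The arrays lay on 2 slides. Runs of 5 label numbers (the first ending at 5, the second at 10 and the third at 15) each held 1 array per group, and arrays of the same run deviated together once the slide was removed. Control 1 gave the lowest control level for 10 of 10 genes and IL-1β 5 the lowest IL-1β level for 10 of 10, both of the first run, while IL-6 8 and TGFß1 7, of the second run, gave the highest level of their group for 10 of 10. The comparisons with control, and those of TNFα with IL-1β and with IL-6, are therefore also given with the run as a block.

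The 8 genes other than *Gbp5* and *Gbp6* were well above background on all 15 arrays. *Gbp5* was so on 11 arrays, and was not on control 1, IL-6 3, TGFß1 2 and TGFß1 12. *Gbp6* was so on 13, and was not on TGFß1 2 and TGFß1 12. No group had all its arrays below, and all 10 genes passed the filter on dim probes.

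**Figure D1:**
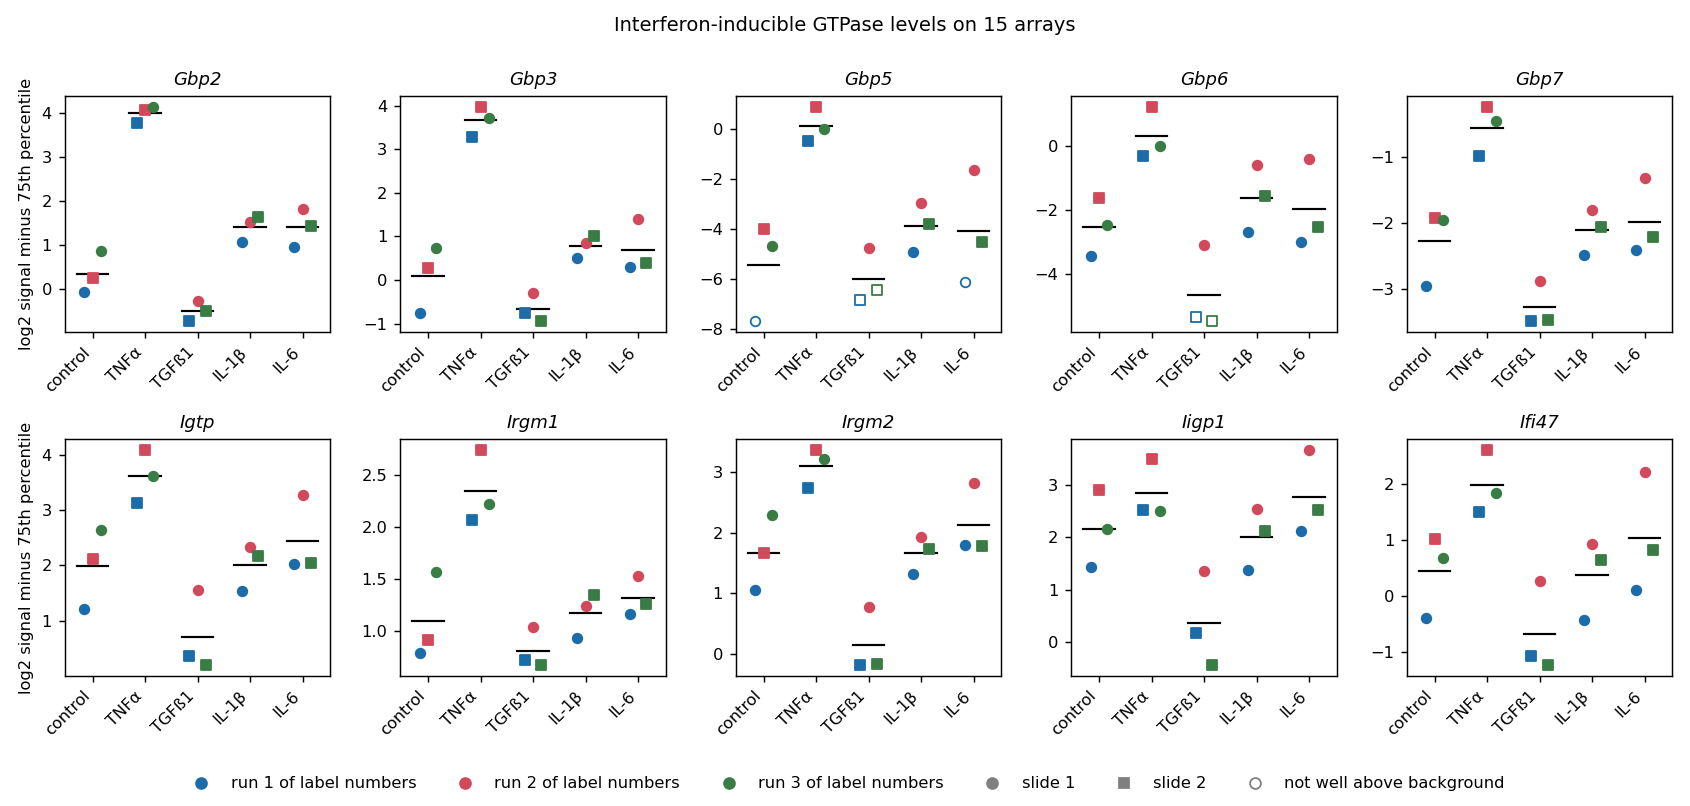
Level of each of the 10 genes (log2 signal minus the 75th percentile of the array, with its own vertical scale per gene) on the 15 arrays, by group, with the group mean as a bar, the run as color, the slide as symbol and open symbols for arrays not well above background. The TNFα mean was the highest and the TGFß1 mean the lowest of the 5 groups for 10 of 10 genes.

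The first comparison asked what TNFα, the proinflammatory stimulus of the study, did to these genes. With TNFα, 8 of the 10 genes were called higher than in controls, at a q-value below 0.05 and an absolute fold-change of at least 1.5, where 4.12% of the 29334 probes tested were called higher. The largest fitted rises were those of the GBPs *Gbp5*, *Gbp2*, *Gbp3* and *Gbp6*, from 7.08-fold to 48.3-fold, while *Gbp7* and the called IRGs rose 2.38-fold to 3.26-fold. The median log2 fold-change of the 10 genes was 1.66, beside 0.04 over all probes tested. The lowest TNFα array exceeded the highest control for 9 of the 10 genes, beside 13.2% of the probes compared. In bulk RNA, a change in how many cells make a transcript and a change in its RNA per cell cannot be told apart.

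*Gbp2*, a GBP that gathers on vacuoles of parasites and bacteria, had levels of -0.08, 0.24 and 0.87 on the control arrays 1, 6 and 11. On TNFα 4, 9 and 14 it had 3.78, 4.09 and 4.16. The groups were far apart, and the TNFα arrays spread less (SD 0.20, n = 3) than the controls (SD 0.48, n = 3). The log2 fold-change was 3.66 ± 0.27 (SE), a 12.7-fold rise with q = 4.2e-06 in limma.

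*Gbp3*, of the same chromosome 3 cluster, had -0.75, 0.28 and 0.73 on the controls 1, 6 and 11. With TNFα it had 3.29, 3.98 and 3.72 on arrays 4, 9 and 14. Again no array of one group came near the other, and the rise was 3.58 ± 0.37 on the log2 scale (11.9-fold, limma q = 6.79e-05).

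*Gbp5*, a GBP known for promoting inflammasome assembly, was dim without TNFα, with -7.70, -4.0 and -4.68 on the controls 1, 6 and 11. On TNFα 4, 9 and 14 it had -0.48, 0.89 and -0.01. The lowest TNFα array stood above the highest control, but the controls spread widely (SD 1.97, n = 3), since control 1 was not well above background. The log2 fold-change was 5.59 ± 1.13 (48.3-fold, limma q = 0.00633), and it was 4.47 without control 1, the lowest value with any array left out. Under the other alternatives it ran from 3.14 to 6.18, where that of *Gbp2* ran from 3.54 to 3.76. The size of the *Gbp5* rise, and its place as the largest, are therefore uncertain.

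*Gbp6* had -3.45, -1.64 and -2.49 on the controls 1, 6 and 11 and -0.32, 1.22 and -0.01 on TNFα 4, 9 and 14. The rise was 2.82 ± 0.83 (limma q = 0.0412), close to the threshold. *Gbp7*, which is known to help bring the phagocyte oxidase to bacterial vacuoles, had -2.95, -1.93 and -1.96 on the controls and -1.0, -0.25 and -0.47 with TNFα, in the same array order. Its groups did not overlap, with a rise of 1.71 ± 0.35 (3.26-fold, limma q = 0.00657).

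Among the IRGs, *Irgm1* and *Irgm2* and *Igtp* (Irgm3) encode the regulatory members, which sit on the cell's own membranes and keep the effector IRGs inactive there. *Irgm1* had 0.79, 0.91 and 1.56 on the controls 1, 6 and 11 and 2.06, 2.74 and 2.22 on TNFα 4, 9 and 14. The lowest TNFα array stood above the highest control, and the rise of 1.25 ± 0.23 passed the test (2.38-fold, limma q = 0.00321). Its other probes were called as well, with 1.27 and 1.08.

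*Irgm2* had 1.05, 1.67 and 2.30 on the controls and 2.74, 3.37 and 3.23 with TNFα, in the same array order, a rise of 1.44 ± 0.38 (limma q = 0.0248). *Igtp* had 1.22, 2.11 and 2.65 on the controls and 3.13, 4.09 and 3.62 with TNFα, a rise of 1.62 ± 0.47 (limma q = 0.0402). In both genes control 1 was the lowest and control 11 the highest control, and the groups did not overlap.

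The effector IRG *Iigp1* (Irga6), which coats and disrupts vacuoles, and *Ifi47* (Irgd) were the genes not called. *Ifi47* had -0.39, 1.02 and 0.67 on the controls 1, 6 and 11 and 1.5, 2.61 and 1.84 on TNFα 4, 9 and 14. The groups did not overlap, yet the log2 fold-change of 1.55 ± 0.59 did not pass (limma q = 0.113). *Iigp1* had 1.42, 2.90 and 2.15 on the controls and 2.53, 3.50 and 2.50 with TNFα. Control 6 lay above TNFα 4 and 14, and the log2 fold-change was 0.68 ± 0.54 (limma q = 0.470).

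Set against the control of its own run, every TNFα array was higher for 10 of 10 genes. The same-run differences of *Iigp1* were 1.10, 0.60 and 0.35 on the log2 scale in the runs in order, the smallest of the 10 genes in each run. Those of *Ifi47* were 1.89, 1.58 and 1.17. With the run as a block beside the slide, *Ifi47* was called (limma q = 0.00221) and *Iigp1* was not (q = 0.0699), which made 9 genes, where 7.51% of probes were called higher in that fit. On slide 1 the difference to control was positive for 10 genes, with a median of 1.84, and on slide 2 for 10 genes, with a median of 1.49. Slide 1 held 1 TNFα array and slide 2 held 1 control, so calls within a slide are not read as results. They are counted only among the alternatives at the end. Without control 1, TNFα 9 or TNFα 14, 5 genes were called, *Gbp6*, *Igtp* and *Irgm2* being lost each time. The share of all probes called with an array left out is not reported here.

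The leukocyte and macrophage markers gave a summed linear level of 6.91 to 15.0 on the controls and 7.87 to 15.5 with TNFα, and 0 of the 4 tested were called in limma (0 at an unadjusted p below 0.05). The summed fibroblast markers were 740 to 891 on the controls and 522 to 598 with TNFα, where 4 of 8 markers were called lower. The part of this shift in the result was not tested.

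**Figure D2:**
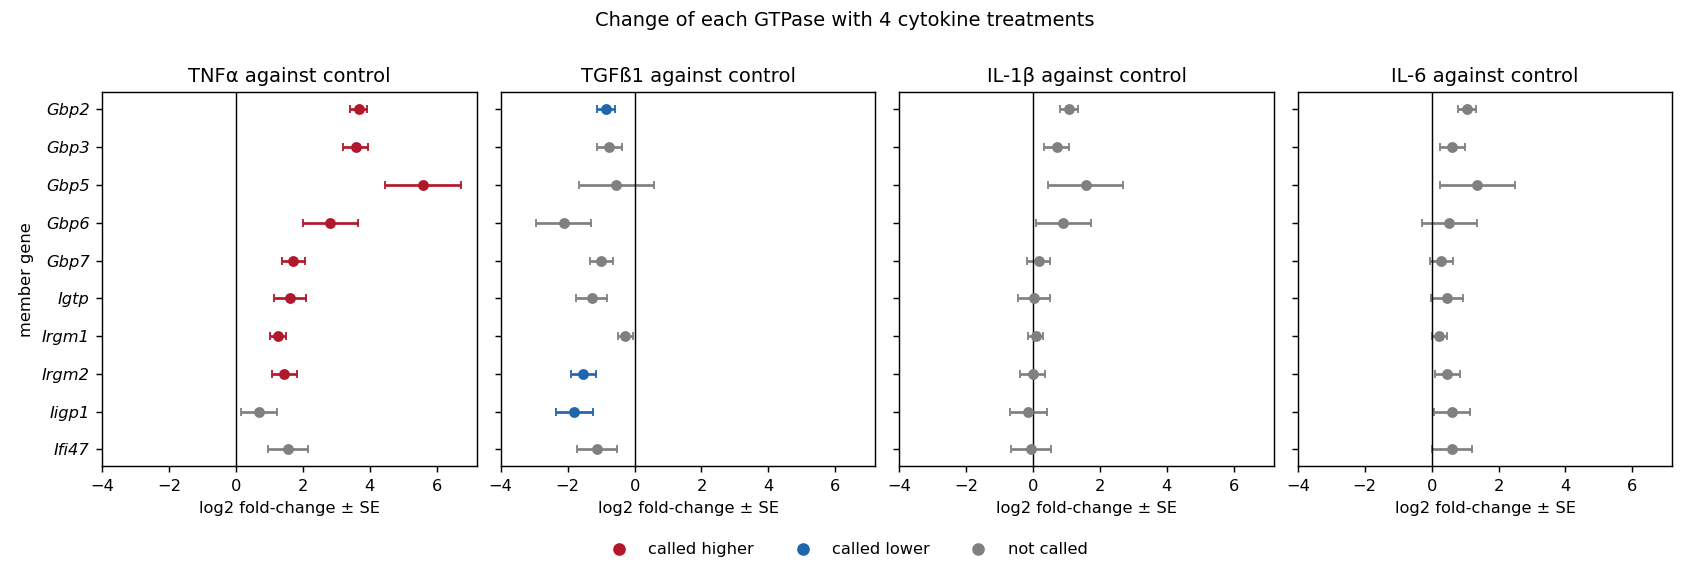
Log2 fold-change against control (horizontal, with the standard error of the limma fit of 15 arrays) of each of the 10 genes with TNFα, TGFß1, IL-1β and IL-6, colored by call. With TNFα 8 genes were called higher, with TGFß1 3 lower, and with IL-1β and IL-6 0. The 4 panels share the control arrays.

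The second comparison asked the same of TGFß1, the profibrotic stimulus. With TGFß1, 3 of the 10 genes were called lower, *Gbp2*, *Irgm2* and *Iigp1*, where 10.8% of all probes tested were called lower. The median log2 fold-change of the 10 genes was -1.06, beside 0.05 over all probes tested, and the fitted change of each of the 10 genes was below 0. The TGFß1 arrays lay below all controls for 3 of the 10 genes, beside 19.9% of the probes compared. The control arrays are the same as in the TNFα comparison.

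*Irgm2* had -0.18, 0.77 and -0.16 on TGFß1 2, 7 and 12, against 1.05 on the lowest control. The log2 fold-change was -1.53 ± 0.38, 2.89-fold lower (limma q = 0.0110), and it was called with any 1 array left out. *Iigp1* had 0.16, 1.35 and -0.44 on TGFß1 2, 7 and 12, just under the 1.42 of control 1. It was lower by a log2 fold-change of -1.80 ± 0.54 (3.49-fold lower, limma q = 0.0295). *Gbp2* had -0.74, -0.28 and -0.50 on the same arrays, also close under control 1 (-0.08), with a change of -0.86 ± 0.27 (limma q = 0.0336).

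For the 7 other genes at least 1 TGFß1 array overlapped the controls, and the overlap always included control 1, the lowest control. *Gbp6* had -5.34, -3.11 and -5.49 on TGFß1 2, 7 and 12, of which the first and the last were not well above background. Its log2 fold-change of -2.12 ± 0.83 was the lowest fitted value of the 10 genes but did not pass (limma q = 0.0807). *Gbp7* (-0.99 ± 0.35, q = 0.0540) and *Igtp* (-1.29 ± 0.47, q = 0.0651) also lay just past the threshold in limma. *Ifi47* had -1.12 (q = 0.195), *Gbp3* -0.75 (q = 0.168), *Gbp5* -0.55 (q = 0.760) and *Irgm1* -0.28 (q = 0.398), all in limma.

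Against the control of the same run, the TGFß1 array was lower in each of the 3 runs for 8 genes. *Gbp5* was higher in the first run (0.88, where both arrays were not well above background), and *Irgm1* in the second (0.12). The third run had the largest falls, with a median same-run difference of -1.83 over the 10 genes, beside -0.68 and -0.76 in the first and second. With the run as a block beside the slide, 7 genes were called lower in limma, where 12.4% of probes were, with *Gbp6* (q = 0.000398), *Gbp7* (q = 0.00143), *Igtp* (q = 0.00766) and *Ifi47* (q = 0.00862) added to the 3. *Gbp3*, *Gbp5* and *Irgm1* stayed uncalled.

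The count for TGFß1 turned on single arrays. It was 6 without control 1 and 6 without TGFß1 7, and it was 1, *Irgm2*, without control 6, control 11, TGFß1 2 or TGFß1 12. The share of all probes called lower in these fits is not reported here. The slides differed too. On slide 2, with 1 control, the 10 genes were lower, with a median of -1.84. On slide 1, with 1 TGFß1 array, 8 genes were lower and the median was -0.33. The 2 others, *Gbp5* (1.44) and *Ifi47* (0.12), were higher on slide 1. Slide 1 held control 1 and TGFß1 7, and the part of slide and run in the result was not tested.

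Epithelial marker *Cdh1* was on no array above background, and of the other epithelial markers 1 of 2 tested was called higher with TGFß1, where their summed level was 0.142 to 0.380, beside 0.0414 to 0.122 on the controls. The leukocyte markers summed to 7.96 to 14.0 with TGFß1. The fibroblast markers summed to 843 to 1063 with TGFß1, beside 740 to 891 on the controls, and of the 8 markers 2 were called higher and 1 lower. The part of these shifts in the result was not tested.

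**Figure D3:**
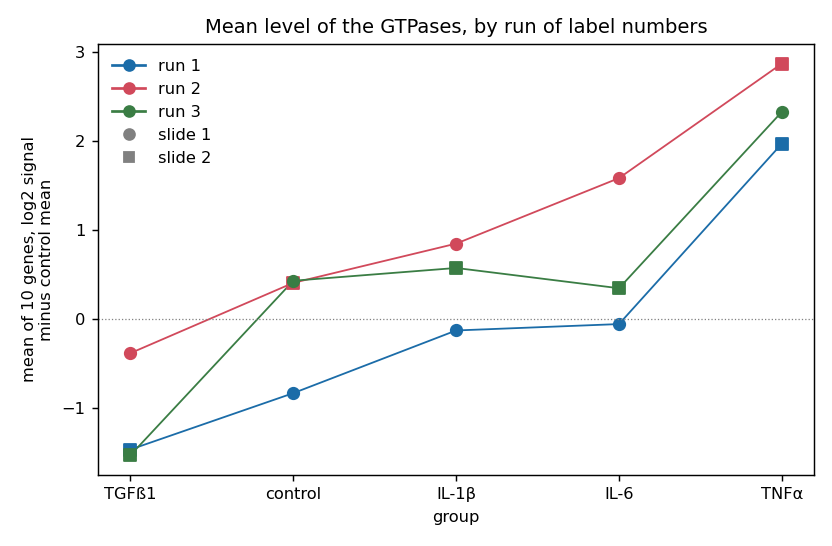
Mean level of the 10 genes on each array (vertical, log2 signal minus the mean of the controls), with lines joining the arrays of the same run and symbols for the slide. The TNFα arrays stood at 1.97, 2.87 and 2.33 and the TGFß1 arrays at -1.47, -0.39 and -1.53 in the runs in order, while the arrays of the first run lay lowest in the control, TNFα, IL-1β and IL-6 groups.

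The other cytokines were compared with control as well. With IL-1β, 0 of the 10 genes were called in limma, where 0.245% of all probes tested were called higher, and 1 gene had an unadjusted p below 0.05. That gene was *Gbp2*, with levels of 1.07, 1.52 and 1.64 on IL-1β 5, 10 and 15. All of these lay above the highest control, 0.87, and the log2 fold-change was 1.07 ± 0.27 (2.09-fold, limma q = 0.250). With the run as a block beside the slide, *Gbp2* was called (limma q = 0.0114), as the only member, where 0.849% of probes were called higher.

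For the other genes the IL-1β arrays overlapped the controls. The other GBPs had log2 fold-changes of 1.57 ± 1.13 (*Gbp5*), 0.91 ± 0.83 (*Gbp6*), 0.71 ± 0.37 (*Gbp3*) and 0.16 ± 0.35 (*Gbp7*). The 5 IRGs lay between -0.14 ± 0.54 (*Iigp1*) and 0.08 ± 0.23 (*Irgm1*). Against the control of the same run, 4 genes, *Gbp2*, *Gbp3*, *Gbp5* and *Gbp6*, were higher in each of the 3 runs, and *Iigp1* and *Ifi47* lower in each. A value that does not pass does not show that these genes were at the control level.

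With IL-6 and its receptor, 0 of the 10 genes were called in limma, where 0.0648% of all probes tested were called higher, and 1 had an unadjusted p below 0.05, again *Gbp2*. Its levels were 0.95, 1.82 and 1.42 on IL-6 3, 8 and 13, all above the highest control. The log2 fold-change was 1.05 ± 0.27 (2.08-fold, limma q = 0.437), and *Gbp2* was the only member called with the run as a block beside the slide (limma q = 0.0181), where 0.545% of probes were called higher.

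The log2 fold-changes of the 9 other genes with IL-6 lay between 0.23 ± 0.23 (*Irgm1*) and 1.37 ± 1.13 (*Gbp5*), with a median over the 10 of 0.57. The 3 runs differed. In the second run, IL-6 8 was above control 6 for 10 genes, by a median of 1.16, and in the first IL-6 3 was above control 1 for 10 genes, by 0.72. In the third, IL-6 13 was above control 11 for 4 genes and below it for 6, with a median difference of -0.17. The same split is seen between slides, with a median of 0.93 on slide 1 and -0.14 on slide 2, where each group had 1 array.

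In the direct comparisons, TNFα was higher than TGFß1 for 10 of 10 genes called, where 6.81% of probes were called higher. The log2 differences ran from 1.54 ± 0.23 (*Irgm1*) to 6.14 ± 1.13 (*Gbp5*), and the highest limma q was 0.00830 (*Ifi47*). *Gbp5* was not well above background on TGFß1 2 and TGFß1 12, so the size of its difference is uncertain. Under the alternatives other than arrays left out it ran from 3.23 to 6.84. The count of genes called was 10 with any 1 array left out, in fits whose share of all probes called is not reported here. Within slide 1, where each group had 1 array, the median log2 difference of the 10 genes was 2.43. *Iigp1*, not called between TNFα and control, differed by 2.49 ± 0.54 here.

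Against IL-1β, TNFα was higher for 5 genes, *Gbp2*, *Gbp3*, *Gbp7*, *Irgm1* and *Irgm2*, where 1.72% of probes were called higher. The difference was 2.60 ± 0.27 for *Gbp2* and 2.87 ± 0.37 for *Gbp3* on the log2 scale (limma q = 0.000141 and 0.000785). All TNFα arrays lay above all IL-1β arrays for 9 genes, *Iigp1* being the exception, beside 10.2% of the probes compared. With the run as a block beside the slide, 10 genes were called, where 4.58% of probes were, and without the slide 9. Without IL-1β 5, IL-1β 15, TNFα 9 or TNFα 14, 3 were called. For the fit without the slide and those with an array left out, the share of all probes called is not reported here.

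Against IL-6, TNFα was higher for 5 genes, *Gbp2*, *Gbp3*, *Gbp5*, *Gbp7* and *Irgm1*, where 3.49% of probes were called higher. The difference was 2.61 ± 0.27 for *Gbp2* and 1.03 ± 0.23 for *Irgm1* on the log2 scale. The other *Irgm1* probes had 1.01, which was called, and 0.84, which was not (limma q = 0.0773). *Iigp1* stood apart with 0.07 ± 0.54 (limma q = 0.958). Its levels were 2.13, 3.67 and 2.53 on IL-6 3, 8 and 13 and 2.53, 3.50 and 2.50 on TNFα 4, 9 and 14. The groups of *Iigp1* thus covered the same range, and with the run as a block beside the slide, where 9 genes and 6.67% of probes were called higher, it was the only one not called (limma q = 0.910). Without IL-6 3, IL-6 13, TNFα 9 or TNFα 14, 3 genes were called, in fits whose share of all probes called is not reported here.

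Over all 10 pairs of groups, 44 of the 100 tests of a gene were called. Of these, 28 were pairs with TNFα and 16 pairs of TGFß1 with another group, and 0 of the 30 tests among control, IL-1β and IL-6 were called in limma, with 2 at an unadjusted p below 0.05. Between IL-6 and IL-1β, 0.419% of all probes were called in either direction. In that middle stretch the order of the means differed between genes. IL-1β came second after TNFα for *Gbp2*, *Gbp3*, *Gbp5* and *Gbp6*, and IL-6 for the other 6 genes. The control mean stood just above that of TGFß1 for 7 genes. No neighbours in this stretch were called in the fit without the run, but the IL-6 and control arrays of *Gbp2* did not overlap and were called with the run as a block. TGFß1, last in each gene, differed from IL-6 for 7 genes, where 10.1% of probes were called higher with IL-6, and from IL-1β for 6, where 10.7% were.

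The members varied together across the arrays. Pearson's r between a pair of the 10 genes over the 15 arrays was 0.68 to 0.99 with a median of 0.91 over 45 pairs, and 0.60 to 0.99 with a median of 0.87 after group means were removed. *Igtp* and *Irgm2*, neighbours on chromosome 11, had 0.99 in both. *Gbp6* and *Ifi47*, which lie on chromosomes 5 and 11, had 0.95, and 0.98 after group means were removed. A link of these values with the promoter letters was not tested. The arrays share their run and slide, so these values are a description.

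The other genes of the family were read from a list of 15 interferon-inducible GTPases, of which 10 were tested. With TNFα, 2 of them were called higher, *Gbp2b* (4.2 ± 0.47 on the log2 scale), which lies between *Gbp3* and *Gbp2*, and *Gvin1* (1.18), a very large interferon-inducible GTPase. With TGFß1, 5 were called lower, among them the GBPs *Gbp4* (-3.78), *Gbp8* (-2.63) and *Gbp9* (-2.45) and the IRG-like *Gm4951* (-2.43). *Gbp4*, *Gbp8* and *Gbp9* were each well above background on 1 of the 3 TGFß1 arrays, so the sizes of their differences are uncertain. Their median was 1.52 with TNFα and -0.89 with TGFß1, and 0 were called with IL-1β or IL-6 in limma (0 and 1 at an unadjusted p below 0.05).

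Of the upstream genes, the ligand *Ifnb1* (interferon β) was well above background on all 3 TNFα arrays and on no control, TGFß1 or IL-6 array, and on 1 IL-1β array. That IL-1β array had -3.38, above the highest TNFα array (-4.08). *Ifnb1* was at least 1.98-fold higher with TNFα than in controls (limma q = 0.0264). Of 9 interferon genes listed, 3 were tested, and *Ifnb1* with TNFα was the only call in the comparisons with control. The other tested genes were *Ifnl3*, well above background on all 3 arrays of each group, and *Ifna1*, on 3 TNFα arrays and 2 of each other group. *Ifng*, the ligand interferon γ, was well above background on 2 IL-1β arrays, 1 TGFß1 array and no control, TNFα or IL-6 array, and was not tested. Of 7 receptor chains and Janus kinases, 1 was called higher with TNFα, the receptor chain *Ifngr2* (0.83), and 0 were called with TGFß1, IL-1β or IL-6 in limma (2, 2 and 0 at an unadjusted p below 0.05).

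Transcription factors that act on interferon-stimulated genes were called in both main comparisons. With TNFα, *Irf1* (1.51 ± 0.14) and *Batf2* (2.01) were called higher. With TGFß1, *Irf7* (-1.63), *Stat2* (-1.51) and *Irf9* (-0.97) were called lower, while *Irf1* had 0.04. Of 5 feedback inhibitors, *Usp18* (1.54) and *Socs1* (0.87) were called higher with TNFα, *Usp18* (-1.35) lower with TGFß1, and *Socs3* (2.39) higher with IL-6.

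Other interferon-stimulated genes, which are not GTPases, were read from a further list. With TNFα, 16 of 21 tested were called higher, with a median of 1.72, among them the chemokine *Cxcl10* (5.74), the antiviral genes *Rsad2* (4.39) and *Ifit3* (3.70), and *Cxcl9*, at least 15.8-fold higher since no control array was well above background. With TGFß1, 7 of 21 were called lower, with a median of -0.82, led by *Oas2* (-2.66) and *Psmb9* (-1.63). With IL-1β the median was 0.16 and with IL-6 0.35, and 0 of 21 were called in either in limma (3 and 1 at an unadjusted p below 0.05).

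Target genes of the other pathways were read from lists as well. Of 10 NF-κB response genes, 10 were called higher with TNFα and 7 with IL-1β, where *Cxcl1*, a chemokine, had 3.64 and 4.14. With TGFß1, 8 were called lower, and with IL-6 0 were called in limma (2 at an unadjusted p below 0.05). Of 10 STAT3 response genes, 3 were called higher with IL-6, *Socs3* (2.39), *Cebpd* (1.71) and *Bcl3* (1.65), and all 10 were higher at an unadjusted p below 0.05. With TNFα, 2 of the STAT3 genes were called higher and 3 lower, where 6.06% of all probes tested were called lower. With IL-1β, 2 STAT3 genes were called higher beside the 7 NF-κB genes.

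Of 11 genes of the ubiquitin-like conjugation that loads these GTPases on vacuoles, 0 were called higher in any of the 4 comparisons with control in limma (1 at an unadjusted p below 0.05, with TGFß1). *Map1lc3a* (-0.88) and *Gabarap* (-0.59) were called lower with TNFα, and *Map1lc3a* (-0.78) with TGFß1.

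**Figure D4:**
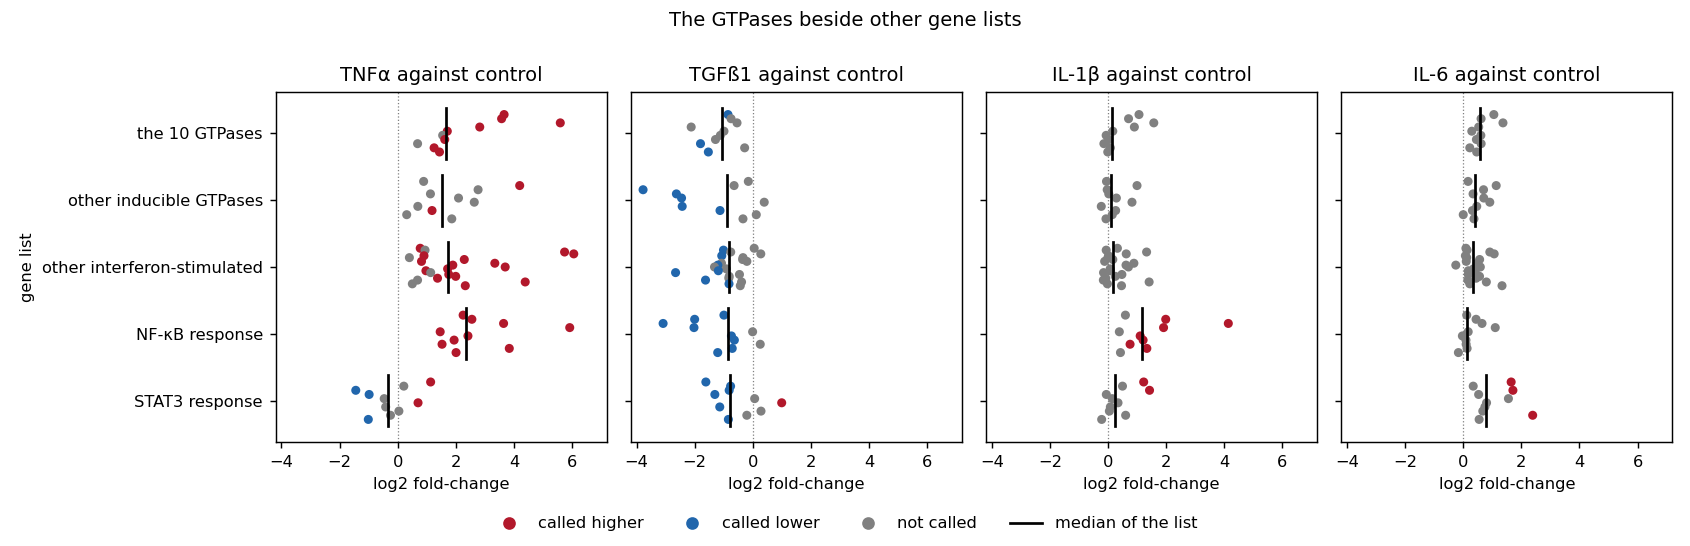
Fitted log2 fold-change against control (horizontal) of each tested gene of 5 lists (vertical) with TNFα, TGFß1, IL-1β and IL-6, colored by call, with the median of each list as a bar. With TNFα the medians of the 10 GTPases, the other interferon-stimulated genes and the NF-κB list were 1.66, 1.72 and 2.33. With IL-1β they were 0.12, 0.16 and 1.16. With IL-1β the NF-κB list had 7 of 10 called and the GTPases 0.

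The genes whose levels followed the mean of the 10 GTPases most closely, among 13503 genes outside the family, were *Ifit3b* (Pearson's r 0.99 over 15 arrays), *Ifit3* (0.98), *Ifit1* (0.98), *Batf2* (0.97) and *Gm45935* (0.97). After group means were removed r was 0.95, 0.94, 0.95, 0.95 and 0.89. *Ifit1*, *Ifit3* and *Ifit3b* encode antiviral proteins, and *Ifit3* and *Ifit3b* are close copies that the probes may not separate. All 5 were called higher with TNFα, by 1.44 to 3.70, and *Gm45935* lower with TGFß1 (-1.29, limma q = 0.00976).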

How the data were processed

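Total RNA of 15 cultures, in 5 groups of 3 taken from the labels, was hybridized to one-color Agilent arrays. The authors extracted the spots with Agilent Feature Extraction 10.7.3.1, and the deposited intensity values are processed signals, after the software's background subtraction, with no scaling between arrays. The deposited table of the series holds the same values (largest difference 0). The study describes 3 independent experiments, and the labels do not say which arrays share one.

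Control spots and spots marked as outliers were left out, spots of a probe were averaged on the log2 scale, and the array's 75th percentile was subtracted. A probe was tested if 1 or more groups had it well above background on all their arrays, which left 29334. Probes were named through RefSeq transcripts (33767 of 56605 named; a gene with several probes is read from the brightest). One linear model of the 5 groups was fitted with limma 3.58.1 in R 4.3.3, with two-sided moderated statistics, adjusted by Benjamini-Hochberg (q) over all probes tested. Calls need q below 0.05 and an absolute fold-change of at least 1.5, as in the study. Precision is limited by the number of arrays. The script was tested on simulated data.

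Named genes were the 10 members, at most 4 called genes of a list with the largest changes (others of a list, such as *Ifngr2* or *Ifng*, were named after their values were seen; counts over the list of transcription factors are not reported here), and the 5 genes with the highest correlation. The members and lists were chosen with earlier results of these data known. For a probe below background on a whole group, a fold is a bound against the higher of the probe's signal and the array's dimmest signal well above background.

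Slides came from the scanner files. With group means and slide removed, same-run arrays (30 pairs) had r from 0.114 to 0.671, and 2 of 60 pairs of other runs had r over 0.1; with the slide kept, 12 of 30 and 28 of 60 did. The scanner files used here hold the median and not the mean signal, so the normexp alternative (offset 50) used the median. Other alternatives were quantile or median scaling, other filters, outlier spots kept, the mean of a gene's probes, other call rules, a variance trend, slide and run blocks, single slides, and each array left out. Promoters were searched with Python 3.11.15 and aligned with Biopython 1.88.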

Additional observations from a re-analysis of the deposited data

How the results depend on the processing

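Counts of the 10 genes called are given with the reported count first. With the runs as a replicate block beside the slide, the count moved from 3 to 7 (TGFß1 against control), 0 to 1 (IL-1β and IL-6 against control), 5 to 10 (TNFα against IL-1β) and 5 to 9 (TNFα against IL-6). Without the slide in that block the counts were 7, 1, 1, 9 and 9, and the share of all probes called in that fit is not reported here. The block lost no call of a member in the 7 comparisons.

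Within slide 1, the counts were 1 (TNFα against control), 0 (TGFß1 against control), 0 (TNFα against IL-1β), 1 (TNFα against TGFß1) and 0 (TNFα against IL-6), and within slide 2 they were 3, 8, 0, 10 and 3. There the 100 tests over all pairs of groups gave 2 and 28 calls in place of 44. These fits have fewer arrays by construction, and a lone array is assumed to vary like the other groups. Of the comparisons listed, only TNFα against TGFß1 on slide 2 had 2 arrays in each group. The share of all probes called within a slide is not reported here, so the counts do not show whether these genes stood out.

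With no filter on dim probes, 5 genes (TNFα against control), 1 (TGFß1 against control) and 3 (TNFα against IL-1β) were called, with more probes tested by construction. With only the arrays of the groups compared, 1 gene was called for TGFß1 against control, where *Gbp5* was not tested, and 3 for TNFα against IL-6. With each array left out, the range was 5 to 7 (TNFα against control), 1 to 6 (TGFß1 against control), 3 to 4 (TNFα against IL-1β), 3 to 6 (TNFα against IL-6) and 10 to 10 (TNFα against TGFß1). The share of all probes called in these fits is not reported here.

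Other scalings, normexp, outlier spots kept, the stricter filter, the mean of probes, the variance trend and a fold-change of 2 kept these counts within 1.5 times the reported ones. No value called in the reported fit changed sign under any alternative. *Ifi47*, called lower with TGFß1 only under alternatives such as the run block (-1.11), was higher on slide 1 (0.12). The cause of the changes under the run block was not tested.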
